A study of Homo sapiens with 131 samples.

Results

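The 4 libraries described here came from HCT116 cells, a human colorectal carcinoma line, and are 4 of the 131 samples of the series. They were chosen by their titles, which mark them as Illumina short-read libraries of induced HCT116 cells with a pair of RNA editing enzymes. In the 2 fusion libraries the cells were induced to express APOBEC1-DDX6 and LSM14A-ADAR2dd, and in the 2 control libraries they were induced to express APOBEC1 and ADAR2dd that were not joined to either protein. The labels give no inducer, dose, time or promoter, and do not say whether a line was a clone or whether the libraries of a group came from separate cultures, so p-values here measure the spread between libraries, which may be technical. Each library was read for A-to-I and for C-to-U editing, with 10887 and 10666 genes listed, of which 10396 were listed for both. Of these, 10350 had 20 or more reads in every library, and they are the genes described.

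Processing bodies (P-bodies) are cytoplasmic granules in which mRNAs that are not being translated gather with proteins that repress translation, remove the cap and degrade RNA. DDX6 is the RNA helicase at the centre of this repression and LSM14A is one of its binding partners, and both are needed for P-bodies to form in human cells. APOBEC1 is a cytidine deaminase that turns C into U, and ADAR2dd is the deaminase domain of ADAR2, which turns A into inosine, read as G in sequencing. A deaminase joined to a protein of the granule edits RNAs that come near that protein, so an mRNA that meets both fusions can gain both kinds of edit. The score of a gene is its edited reads as a percentage of its reads, and the question addressed was which mRNAs carried more edits with the fusions than with the unfused editors.

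The libraries held 9107037 to 9976552 reads over the genes of the A-to-I file. In the control pair the scatter of reads per gene was that of counting alone (ratio of chi-square to its degrees of freedom 0.979), although their edited reads differed by more (1.15 for A-to-I and 1.11 for C-to-U). The pair was therefore kept as 2 libraries, and counts obtained with both controls taken as 1 sample were computed beside the main ones. The same ratio for the fusion pair was above that of counting in reads (1.25), in A-to-I edited reads (1.16) and in C-to-U edited reads (1.31). All 8 HCT116 epithelial marker genes looked for, such as KRT8 and EPCAM, were listed, with a summed level of 3389 and 3394 RPM (a gene's reads scaled to the library's total) in the controls and 3050 and 3179 in the fusion libraries. Of 6 leukocyte markers none was listed, of 6 fibroblast markers 1 was listed, and of 8 markers of HEK293T cells 3 were listed.

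Reads of the fused genes differed little between the groups. DDX6 (chr11:118747763-118791744, GRCh38.p14) stood at 396 and 390 RPM in the controls and at 488 and 473 in the fusion libraries, a log2 difference of 0.25 ± 0.03 (SE; adjusted p = 2.41e-19, edgeR quasi-likelihood test). LSM14A (chr19:34172504-34229288) stood at 196 and 197 RPM in the controls and at 206 and 194 in the fusion libraries, and the groups overlapped (adjusted p = 0.827, edgeR). Whether reads of the transgenes were counted with these genes is not given in the sources used here, so these levels do not check the labels.

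Both kinds of editing were higher with the fusions, and A-to-I editing by more. The A-to-I edited share of all reads was 0.283% and 0.290% in the controls and 4.77% and 4.78% in the fusion libraries. The mean was 4.78 ± 0.00873% against 0.286 ± 0.00509% (SD, n = 2 per group), which is 16.7-fold. The C-to-U edited share was 0.269% and 0.276% in the controls and 1.25% and 1.23% in the fusion libraries. The mean was 1.24 ± 0.0114% against 0.272 ± 0.00459% (SD, n = 2 per group), which is 4.55-fold. For both kinds the groups lay apart by many times the spread within a group, while 2 libraries against 2 cannot give an exact two-sided permutation p below 0.333. The median of the gene scores was 3.68% against 0.263% for A-to-I and 1.02% against 0.318% for C-to-U, ratios of 14 and 3.19.

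**Figure D1:**
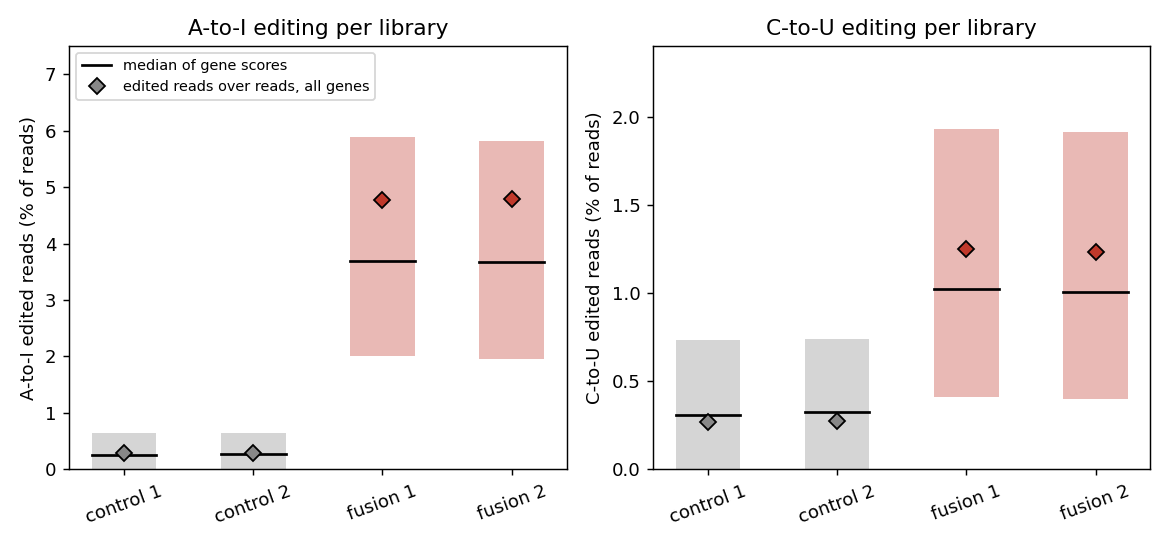
Edited reads as a percentage of reads in each of the 4 libraries, A-to-I on the left and C-to-U on the right, on separate linear axes. Boxes span the lower to the upper quartile of the gene scores, lines are medians, and diamonds are the share summed over the 10350 genes; both fusion libraries stand near 4.8% and 1.2%, and both controls near 0.3%.

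Edited reads were spread over many genes. In the fusion libraries the 100 genes with the most edited reads held 13.8% of the A-to-I edited reads and 14.3% of the C-to-U edited reads, and the 100 most read genes held 9.69% of the reads. EEF1A1, which encodes the elongation factor that brings aminoacyl-tRNA to the ribosome, held the largest share of A-to-I edited reads, 1.10%. B2M, the light chain of class I antigen-presenting molecules, held the largest share of C-to-U edited reads, 0.568%.

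A-to-I editing rose in most genes that could be tested. Of 8628 genes with at least 10 A-to-I edited reads over the 4 libraries, 7953 (92.2%) rose and 3 (0.0348%) fell at an adjusted p under 0.05 (edgeR quasi-likelihood test on edited reads with the reads of the gene as offset). The fusion libraries alone could meet this minimum, so the filter favours genes that rose and part of the share comes from it. With no minimum beyond 1 edited read, 8027 of 10350 genes rose and 3 fell. In 8385 genes (97.2%) both fusion libraries lay above both controls. Among the genes that rose, the 2 with the highest scores had few reads. VKORC1, the vitamin K epoxide reductase of the endoplasmic reticulum, had scores of 64.0% and 50.0% in the fusion libraries and 0% and 3.33% in the controls, on 25 to 39 reads per library. RABAC1, a Golgi membrane protein that binds Rab GTPases, had 46.9% and 51.9% against 0% and 1.96%, on 37 to 52 reads. Neither gene overlapped between the groups, and both passed the test (adjusted p = 1.9e-05 and 4.05e-06, edgeR).

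Genes with high A-to-I scores on more reads followed. NDUFB2, a subunit of respiratory complex I, had 33.1% and 36.4% in the fusion libraries against 1.62% and 1.83% in the controls, a 20.2-fold difference (adjusted p = 3.56e-12, edgeR). VPS4A, an ATPase of the ESCRT membrane-cutting machinery, had 34.8% and 32.9% against 2.00% and 2.4%. RPS29, a protein of the small ribosomal subunit, had 29.5% and 33.3% against 2.30% and 2.72%. In each of these 3 genes both fusion libraries lay far above both controls. NBL1, a secreted antagonist of bone morphogenetic proteins, had 26.6% and 26.9% and no edited read in 1494 control reads, which makes it at least 133-fold higher. SRP14, a subunit of the signal recognition particle, had 26.8% and 26.5% against 1.91% and 1.24%.

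The largest folds of A-to-I editing were found in strongly expressed genes whose controls held 1 edited read or none. ACTG1, cytoplasmic gamma-actin, had 6.20% and 6.44% in the fusion libraries against 0% and 0.00427% in the controls. That is 2959-fold with a 95% counting interval of 534 to 117620, since the control value rests on 1 edited read. HSP90AA1, an inducible HSP90 chaperone, had 6.32% and 6.79% against 0.00557% and 0% (interval of the ratio 416 to 91773). P4HB, protein disulfide isomerase, had 8.07% and 7.91% against 0.00950% and 0%, and FLNA, the actin crosslinker filamin A, had 7.92% and 8.37% against 0% and 0.0122%. HSPA8, the constitutive HSP70 chaperone, had 12.5% and 12.3% and no edited read in either control, at least 1024-fold higher. EEF2, the elongation factor that moves the ribosome along the mRNA, had 7.09% and 6.73% and no edited read in the controls, at least 737-fold higher. ACTG1, HSP90AA1, HSPA8 and most ribosomal protein genes have near-identical copies in the genome, and whether the counting could tell these apart is not given in the sources used here.

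PRR11 and PMF1 were among the 3 genes in which A-to-I editing fell. PRR11, a proline-rich protein of the cell cycle, had 4.16% and 3.29% in the controls and no edited read among 182 reads of the fusion libraries, at least 2.26-fold lower. PMF1, a kinetochore protein, had 21.3% and 17.0% in the controls and 8.0% and 8.33% in the fusion libraries (adjusted p = 0.00669, edgeR).

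Because nearly every gene tested gained A-to-I edits, genes were also compared with the library as a whole, with the library-wide edited share of each library in the offset. A gene called above the library-wide rise had a fold change larger than 16.7, and one called below it had a smaller one. By that test 954 of 8628 genes (11.1%) stood above the library-wide A-to-I rise and 1011 (11.7%) below it. These calls needed both fusion libraries: without either of them edgeR called 0 genes, with 1569 and 1560 at an unadjusted p under 0.05, and no other tool was run on 3 libraries. The split of 954 above and 1011 below became 1437 above and 936 below with limma on log2(score in percent + 1). The calls moved with expression, since the genes above had a median of 2243 reads per library and those below 586. Control scores moved with expression too: the median A-to-I score in the controls was 0.412% in the quartile of genes with the fewest reads and 0.112% in the quartile with the most. The part of expression in the calls was not tested.

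C-to-U editing rose in a smaller share of the genes tested. Of 6681 genes with at least 10 C-to-U edited reads, 3270 (48.9%) rose and 14 (0.21%) fell, and in 4814 (72.1%) both fusion libraries lay above both controls. Here too the filter favours genes that rose: with no minimum beyond 1 edited read, 2903 of 10350 genes rose and 8 fell. DESeq2 called 1748 higher and 2 lower. Without fusion library 1 or 2 edgeR called 0 genes, with 2519 and 2575 at an unadjusted p under 0.05, so these calls also need both fusion libraries. The share of tested genes that rose was 22.1% in the quartile with the fewest reads and 69.3% in the quartile with the most.

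TSPAN7, a membrane protein of the tetraspanin family, had the highest C-to-U score among the genes that rose, with 16.4% and 15.4% in the fusion libraries against 0.452% and 0.847% in the controls. ARL6IP1, a protein that shapes tubules of the endoplasmic reticulum, had 14.5% and 13.6% and no edited read in 3788 control reads, at least 178-fold higher. B2M had 13.1% and 12.6% against 0.156% and 0.228%, a 66.9-fold difference (adjusted p = 2.88e-09, edgeR). Its A-to-I scores were far lower, 2.17% and 2.4% against none in the controls. SPTSSA, a small subunit of the enzyme that starts sphingolipid synthesis, had 12.6% and 12.9% C-to-U against 0.241% and 0.240%. MGST1, a membrane glutathione transferase, had 11.2% and 12.6% against 0% and 0.376%. In all of these genes the groups lay far apart.

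The largest C-to-U folds were again in genes almost without edits in the controls. RAD23B, which carries ubiquitylated proteins to the proteasome, had 5.61% and 4.65% against 0% and 0.0237% (432-fold, 95% counting interval 78.8 to 17494). SELENOF, a selenoprotein of the endoplasmic reticulum, had 8.92% and 9.44% against 0% and 0.0477% (385-fold, interval 67.7 to 15046). PRKAR1A, a regulatory subunit of protein kinase A, had 11% and 9.98% against 0.0308% and 0.0317%, which is 335-fold (adjusted p = 2.88e-09, edgeR). RPL7A, a protein of the large ribosomal subunit, had 11.8% and 12.3% and none in the controls, at least 382-fold higher. Its A-to-I scores were 0.649% and 1.25%.

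Among the 14 genes in which C-to-U editing fell, JADE2 and LOXL4 had a control score of at least 2%. JADE2, a subunit of a histone acetyltransferase complex, had 1.51% and 2.66% in the controls and none in the fusion libraries. LOXL4, a secreted amine oxidase that crosslinks matrix proteins, had 2.57% and 2.17% in the controls and 0.955% and 0.722% in the fusion libraries (adjusted p = 0.0425, edgeR). In LOXL4 the kinds went apart, since its A-to-I score rose from 1.29% and 1.09% to 9.55% and 9.96%.

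Relative to the library-wide C-to-U rise, 750 of 6681 genes (11.2%) stood above and 799 (12.0%) below. Without either fusion library edgeR called 0 genes (1464 and 1436 at an unadjusted p under 0.05). The split depended on the scale, with 519 above and 248 below by limma on log2(score in percent + 0.1). Here too the genes above were read more, with a median of 1968 reads per library against 708 for the genes below, and the part of expression was not tested.

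Both kinds of editing could be tested in 6472 genes. These had 10 or more edited reads of each kind, a minimum that the fusion libraries alone could meet. Of these, 3107 (48.0%) rose in both kinds, 2992 rose in A-to-I without a C-to-U call, 80 rose in C-to-U without an A-to-I call, and 280 passed neither test. In 10 genes A-to-I editing rose and C-to-U editing fell, and no gene showed the opposite. The kinds come from the same libraries, so these counts are descriptions. Without either fusion library the count in both kinds was 0 by edgeR, since no C-to-U call was left, and with DESeq2 it was 1655. Relative to the library-wide rises, 341 genes (5.27%) stood above in both kinds, 183 stood below in both, and 12 and 29 stood above in one kind and below in the other. Across the 10350 genes, which share libraries and reads, the rank correlation of A-to-I and C-to-U scores was 0.269 in the fusion libraries and 0.532 in the controls. Control scores lay near the floor, with 3262 and 3316 genes without an A-to-I edited read in the 2 libraries and 2768 and 2769 without a C-to-U one. The 2 correlations therefore do not compare how well the kinds agree.

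**Figure D2:**
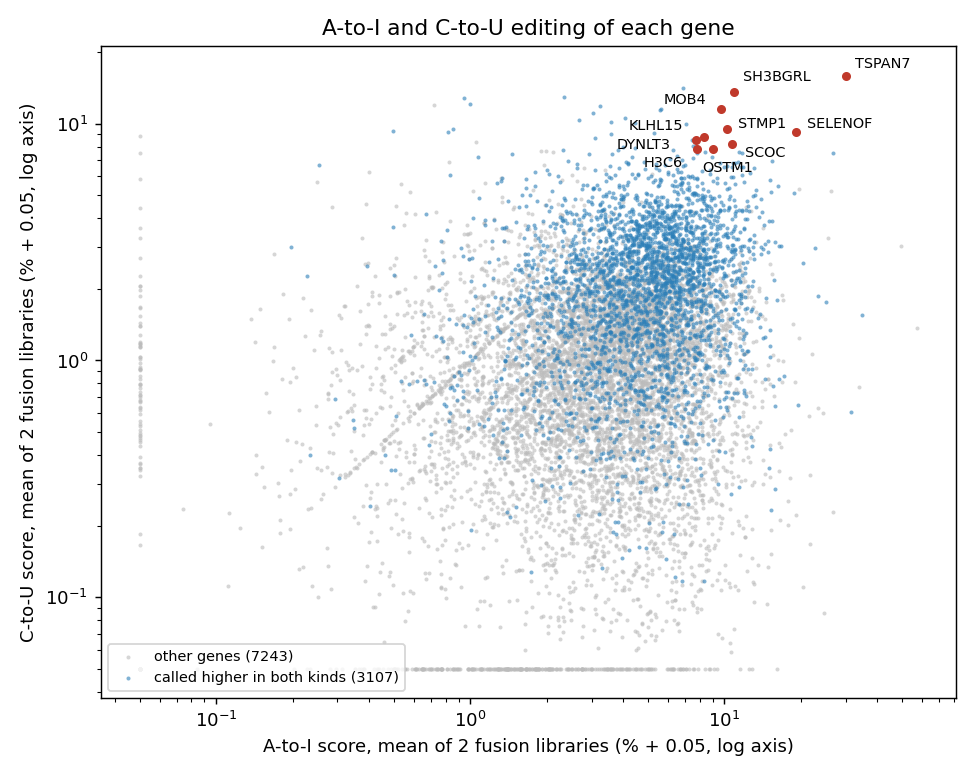
Mean A-to-I score (x axis) and mean C-to-U score (y axis) of each of the 10350 genes in the 2 fusion libraries, in percent plus 0.05 on log axes. Blue points are the 3107 genes that rose in both kinds, grey points the other genes, and red points the 10 genes with the highest lower score of the 2 kinds; TSPAN7 and SELENOF lie farthest to the right among them.

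The 10 genes with the highest scores in both kinds at once, ranked by the lower of their mean scores, were TSPAN7, SH3BGRL, MOB4, STMP1, SELENOF, KLHL15, SCOC, OSTM1, H3C6 and DYNLT3. TSPAN7 (chrX:38561542-38688918) had A-to-I scores of 28.4% and 31.5% against 3.62% and 3.81% in the controls, beside its C-to-U scores of 16.4% and 15.4%. SH3BGRL (chrX:81202102-81298547), a small thioredoxin-like protein, had 12.5% and 9.09% A-to-I against 0.0885% and 0%, and 14.4% and 12.6% C-to-U against none. MOB4 (chr2:197515554-197553699), a subunit of the STRIPAK phosphatase complex, had 8.36% and 11% A-to-I against 0.543% and 0%, and 12.8% and 10.1% C-to-U against 0.272% and 1.02%. All fusion values of these 3 genes lay above all control values.

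STMP1 (chr7:135662514-135676416), a mitochondrial micropeptide, had 10.0% and 10.4% A-to-I against 0.128% and 0.265%, and 9.25% and 9.54% C-to-U against 0% and 0.531%. SELENOF (chr1:86862445-86914577) had 19.8% and 18.5% A-to-I against 0.0979% and 0%, a 391-fold difference with an interval of 109 to 3279. It was called above the library-wide rise in both kinds (adjusted p = 6.16e-05 and 3.24e-05, edgeR). SCOC (chr4:140257308-140385728), a Golgi protein that acts in autophagy, had 10.5% and 10.8% A-to-I against 0.275% and 0%, and 6.43% and 9.79% C-to-U against 0.0917% and 0%. OSTM1 (chr6:108041409-108074741), a subunit of a lysosomal chloride transporter, had 10.0% and 7.99% A-to-I against 0.510% and 0.415%, and 8.23% and 7.31% C-to-U against none. KLHL15, an adaptor of a ubiquitin ligase, H3C6, a histone H3 gene with many near-identical copies, and DYNLT3, a light chain of dynein, had fusion scores of 6.31% to 9.75% in both kinds. Of the 10 genes, 4 lie on the X chromosome, a count noticed after the values were seen and not tested.

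A test of the difference between the kinds asked which mRNAs gained more of one edit than of the other, after the library-wide level of each. Of 6472 genes, 222 (3.43%) gained more A-to-I and 227 (3.51%) more C-to-U. Leaving out control library 1 or 2 gave 249 and 257 calls in place of 449, and leaving out either fusion library gave 0 by edgeR (424 and 415 at an unadjusted p under 0.05).

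Genes named here for a large difference toward A-to-I had C-to-U scores under 1% in every library. KHSRP, a protein that binds AU-rich elements, had 7.32% and 7.30% A-to-I against none, and C-to-U scores of 0.144% and 0.0251% against 0.0235% and 0.0758%. ITGA3, an integrin subunit, had 7.71% and 6.77% A-to-I against none, and 0.115% and 0.118% C-to-U against 0% and 0.0959%. RNF34, a ubiquitin ligase, and MTCH1, a protein of the outer mitochondrial membrane, had fusion A-to-I scores of 5.77% to 8.27% and no A-to-I edited read in the controls.

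The 3 largest differences toward C-to-U were in ZDHHC20, MAGT1 and CCNI, which had A-to-I edits in the controls already and no C-to-U edits there. ZDHHC20, a palmitoyl transferase, had A-to-I scores of 2.41% and 2.68% in the controls and 4.63% and 4.90% in the fusion libraries, while its C-to-U scores were 3.09% and 2.96% against none. MAGT1, a subunit of the oligosaccharyl transferase, had 12.4% and 12.8% A-to-I against 3.03% and 3.58%, and 6.23% and 6.08% C-to-U against none. CCNI, cyclin I, had 13.3% and 13.0% A-to-I against 0.724% and 0.796%, and 5.10% and 4.76% C-to-U against none. In these 3 genes both kinds rose, and the difference lay in the control level of A-to-I editing as well as in the fusion libraries.

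The mRNAs of P-body proteins were edited along with the rest. Of 18 P-body and decapping factors listed, 17 were in the files, 14 could be tested for A-to-I and all 14 rose, beside 92.2% of all genes tested. For C-to-U, 7 of 11 tested rose, beside 48.9% of all genes, and of 11 tested for both kinds 7 rose in both. Over the 17 genes the median fusion score was 6.31% for A-to-I and 0.993% for C-to-U, beside 3.67% and 1.04% over all 10335 protein-coding genes described. Relative to the library-wide rise 2 of 14 stood above and 1 below in A-to-I, beside 11.1% and 11.7% of all genes tested. In C-to-U 1 of 11 stood above and none below, beside 11.2% and 12.0%.

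DDX6 itself had A-to-I scores of 12.1% and 10.9% in the fusion libraries against 0.836% and 0.420% in the controls (18.3-fold, adjusted p = 5.39e-13, edgeR). Its C-to-U scores were 1.05% and 0.859% against 0% and 0.0262%, and were the 1 C-to-U call of this list above the library-wide rise (adjusted p = 0.00835, edgeR). LSM14A had 2.64% and 2.27% A-to-I and none in the controls, at least 31.7-fold higher, and 1.52% and 1.25% C-to-U against 0.0510% and 0.104%. Edits of transgene RNA cannot be told apart from those of the cell's own DDX6 and LSM14A mRNA in these scores.

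LSM4 (chr19:18306236-18323076), a subunit of the LSM ring that binds shortened tails before decapping, had the highest A-to-I scores of the list. They were 13.1% and 15% in the fusion libraries against 0% and 0.0906% in the controls (adjusted p = 5.86e-11, edgeR). EIF4ENIF1, known as 4E-T, which links DDX6 to the cap-binding protein, had 9.64% and 9.83% A-to-I against 0.251% and 0.233%, and 1.93% and 2.95% C-to-U against 1.01% and 0.466%. PATL1, a scaffold between DDX6 and the LSM ring, had 7.58% and 10.3% A-to-I against 0.200% and 0.391%. XRN1, the exonuclease that degrades decapped RNA, had 7.38% and 5.24% A-to-I against 0.639% and 1.36% and stood below the library-wide rise (adjusted p = 0.0276, edgeR). XRN1 also had the highest C-to-U scores of the list, 3.30% and 3.58% against 0.560% and 0.938%, followed by the decapping enzyme DCP2 with 3.98% and 2.52% against 0.178% and 0.767%. DCP1A, a decapping activator, had 1.45% and 0.476% C-to-U against 0.511% and 0.643%, and its groups overlapped. LSM1, LSM3 and LSM6 had too few edited reads for the test of either kind, with scores under 1% in every library.

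**Figure D3:**
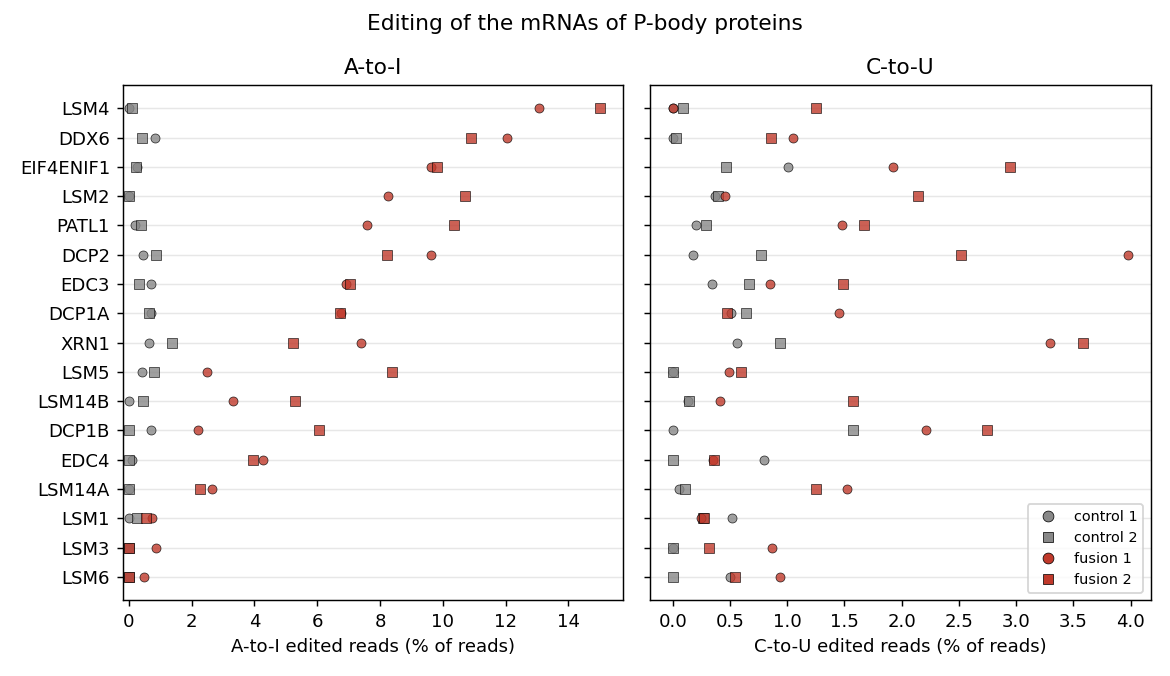
A-to-I (left) and C-to-U (right) edited reads as a percentage of reads for the mRNAs of 17 P-body and decapping factors, 1 point per library, grey for the 2 controls and red for the 2 fusion libraries. Genes are ordered by mean A-to-I score in the fusion libraries, from LSM4 at 13.1% and 15% to LSM6, and the axes differ between the panels.

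Other groups of mRNAs are described by counts against the library-wide rise, of which the background is 11.1% above and 11.7% below for A-to-I and 11.2% above and 12.0% below for C-to-U. For counts of genes that rose, the background is 92.2% of genes tested for A-to-I and 48.9% for C-to-U. Expression is given beside them as the median reads per gene over all members with 20 or more reads in every library, 539 over all genes described, and its part in these counts was not tested.

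Genes of the translation machinery stood above the library-wide rise more often than below it. Of 31 translation initiation and elongation factors 15 stood above in A-to-I and none below, and in C-to-U 10 of 19 stood above and none below, at a median of 2320 reads. EIF3K, a subunit of initiation factor 3, had 16.3% and 13.2% A-to-I and none in the controls, at least 72.1-fold higher. EEF1A1 had 15% and 15.1% against 0.648% and 0.866% and did not differ from the library-wide rise by the test (adjusted p = 0.0719, edgeR). EIF4E, the cap-binding protein, had 2.49% and 2.82% C-to-U against 0% and 0.0703%.

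Of 33 genes of large-subunit ribosomal proteins 23 stood above in A-to-I and 2 below, and of 22 small-subunit genes 12 stood above and none below. In C-to-U the counts were 8 above and 1 below of 22, and 6 above and 1 below of 11. The large-subunit list had a median of 2533.5 reads and the small-subunit list 2845. RPL36 had 24.9% and 25.2% A-to-I against 0.772% and 0.0572%, and RPS27A, which encodes a ubiquitin fused to a ribosomal protein, had 21.5% and 21.8% against 0.240% and 0.183%. RPL23 did not pass, with 0.132% and 0.242% against 0.136% and 0.190%, and neither did RPS24, with 0% and 0.552% against 0% and 0.302%. Scores thus ranged widely among these genes within a library.

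Of 25 genes of tubulins, actins and actin-binding proteins 14 stood above in A-to-I and none below, and 12 of 17 stood above in C-to-U. TMSB4X, thymosin beta 4, which holds actin monomers, had 16.6% and 16.0% A-to-I and none in the controls, at least 145-fold higher. ACTR2, a subunit of the Arp2/3 complex, had 2.76% and 3.31% C-to-U and none in 12919 control reads, at least 131-fold higher. This list had a median of 3110 reads.

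Of 25 genes of the signal recognition particle, the translocon and cargo receptors, 15 stood above the library-wide rise in C-to-U and none below, and in A-to-I 8 of 28 stood above and 1 below, at a median of 1838 reads. TMED7, a cargo receptor between the endoplasmic reticulum and the Golgi, had 11% and 11.1% C-to-U against 0.332% and 0%. SRP9, the partner of SRP14 in the signal recognition particle, had 9.43% and 9.49% C-to-U against 0.235% and 0%. SRP14 had 7.64% and 7.23% C-to-U against 0.109% and 0%. The difference between the kinds passed its own test for SRP14, toward C-to-U (adjusted p = 1.88e-06, edgeR).

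In metabolic and proteasome genes too, calls above outnumbered calls below. Of 20 cholesterol synthesis genes 9 stood above and 1 below in A-to-I, and of 22 proteasome subunits 10 above and 2 below. Of 15 glycolysis enzymes 5 stood above and 2 below, and of 45 respiratory chain genes 10 above and 3 below. In that order, these lists had medians of 1837, 1821, 2875 and 685 reads. PSMB4, a proteasome subunit, had 15% and 15.5% A-to-I against 0.486% and 0.485%, whereas PSMD12, another subunit, had 0.732% and 0.491% against 0.472% and 0.494% and did not rise. PKM, pyruvate kinase, had 15.3% and 15.1% against 1.57% and 1.59% and stood below the library-wide rise, with a fold of 9.60. ALDOC, an aldolase, was the glycolysis gene in which C-to-U editing fell, from 0.426% and 0.635% to 0.0974% and 0.0482% (adjusted p = 0.00884, edgeR). NDUFB5, a subunit of complex I, had 11.1% and 8.97% C-to-U against 0.824% and 0.256%.

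In the chromatin, zinc finger, CCR4-NOT and ubiquitin lists, A-to-I calls below the library-wide rise outnumbered calls above it. Of 44 chromatin and histone modifiers all 44 rose in A-to-I, beside 92.2% of all genes tested. Yet 3 stood above the library-wide rise and 11 below, and in C-to-U none stood above and 7 below of 38, at a median of 1735 reads. KDM5C, a histone demethylase, had 9.0% and 9.63% A-to-I against 0.200% and 0.578%. Of 197 zinc finger genes tested 165 rose, 3 stood above and 36 below in A-to-I, and 2 stood above and 17 below of 149 in C-to-U. The 269 zinc finger genes described had a median of 270 reads and a median A-to-I control score of 0.515%, beside 0.311% for all 10335 protein-coding genes described. Of 24 CCR4-NOT and miRNA silencing factors, 1 stood above and 3 below in A-to-I, and 2 of 21 stood below in C-to-U. Their median was 941 reads. PUM2, a repressor that binds 3′ untranslated regions, had 9.11% and 9.29% A-to-I against 0.470% and 0.663%. Of 36 ubiquitin ligases and deubiquitinases, at a median of 1251 reads, 3 stood above and 7 below. Among them MDM2 stood below, with 8.32% and 8.16% against 1.47% and 2.02%.

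Of 20 mitotic factors 15 rose in A-to-I, beside 92.2% of all genes tested, none stood above the library-wide rise and 5 stood below. The mitotic list had a median of 373 reads. TTK, a spindle checkpoint kinase, had 2.51% and 1.64% A-to-I in the controls and none in the fusion libraries, where it had 120 reads against 483 in the controls. Its fall did not pass the test (adjusted p = 0.0697, edgeR), and it stood below the library-wide rise. NCAPG, a condensin subunit, had 4.96% and 6.67% C-to-U against 0.421% and 0.701%. Of 6 replication-dependent histone genes tested 2 rose in A-to-I, and all 5 tested rose in C-to-U, beside 92.2% and 48.9% of all genes tested. The histone list had a median of 237 reads. Of 13 mitochondrially encoded mRNAs 1 was listed for either kind of editing and none was among the genes described, so their editing was not measured here. Of 11 RNAs listed as nuclear, 1 was in the files, TUG1. It rose in both kinds, to 2.04% and 2.61% A-to-I and 0.255% and 0.758% C-to-U. Where in the cell the edited TUG1 lay was not measured.

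**Figure D4:**
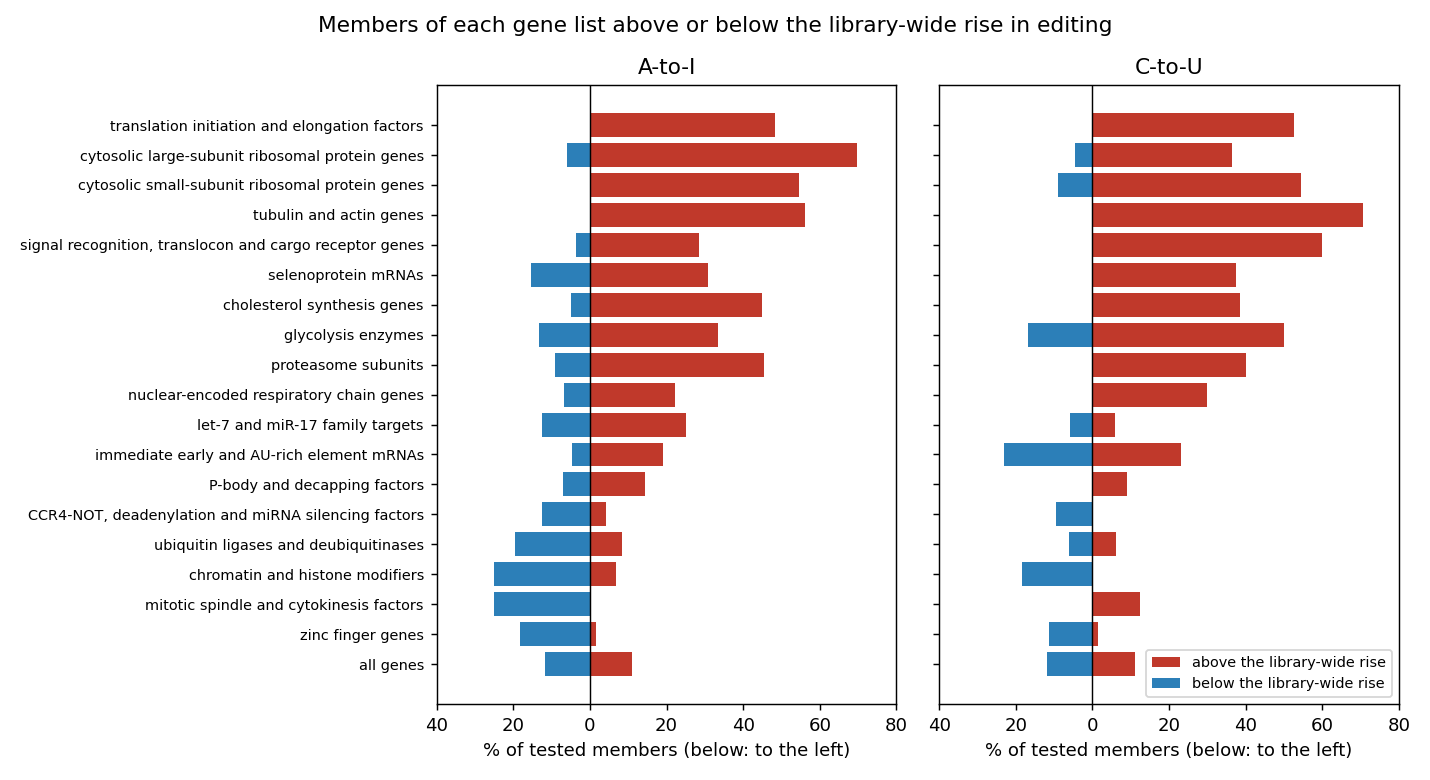
Share of the tested members of each gene list that stood above (red, to the right) or below (blue, to the left) the library-wide rise in A-to-I (left panel) and C-to-U editing (right panel), in percent, edgeR adjusted p under 0.05. Translation factors, ribosomal protein genes, and tubulin and actin genes (a list that also holds actin-binding proteins) lie mostly to the right. Chromatin and zinc finger genes lie mostly to the left, and the bottom bars give all genes at about 11% and 12%.

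Targets of let-7 and of the miR-17 family were looked at because miRNA-bound mRNAs are repressed through GW182 proteins and CCR4-NOT, which recruits DDX6. The miRNAs pair with their targets through the seed, bases 2 to 8 from the 5′ end, shown here in capitals with the mature sequences of RefSeq (GRCh38.p14).
hsa-let-7a-5p (chr9:94175962-94175983, plus strand): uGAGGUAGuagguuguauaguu
hsa-let-7b-5p (chr22:46113691-46113712, plus strand): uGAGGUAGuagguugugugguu
hsa-miR-17-5p (chr13:91350618-91350640, plus strand): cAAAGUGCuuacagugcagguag
hsa-miR-20a-5p (chr13:91351072-91351094, plus strand): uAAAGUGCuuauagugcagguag
The let-7 miRNAs share the seed GAGGUAG, and miR-17 and miR-20a share AAAGUGC. Of 16 targets tested all 16 rose in A-to-I, with 4 above and 2 below the library-wide rise, and 10 of 17 rose in C-to-U, with 1 above and 1 below. Of all genes tested 92.2% rose in A-to-I and 48.9% in C-to-U. The list of targets had a median of 960.5 reads. CCND1, cyclin D1, had 7.54% and 7.84% A-to-I and none in 20867 control reads, at least 535-fold higher. ZBTB4, a transcriptional repressor, had 11.9% and 11.5% A-to-I against 0.667% and 0.579%. HMGA2, the chromatin protein that is a classic let-7 target, had 6.31% and 3.22% C-to-U against 0.283% and 0.394%. Whether these mRNAs were bound by the miRNAs was not measured.

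Of 21 immediate early and AU-rich element mRNAs 19 rose in A-to-I, with 4 above and 1 below the library-wide rise, and 8 of 13 rose in C-to-U, with 3 above and 3 below. The shares that rose among all genes tested were 92.2% and 48.9%. Median reads of this list were 794. DUSP1, a phosphatase of MAP kinases, had 7.24% and 9.07% A-to-I against 0% and 0.806%. FOS, a subunit of the transcription factor AP-1, had 2.16% and 5.17% C-to-U and none in the controls, at least 29.2-fold higher.

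RNA levels differed between the groups as well, in most genes. Of 10881 genes tested 3595 (33.0%) had more reads in the fusion libraries and 3685 (33.9%) fewer (edgeR with TMM normalization). Counting both controls as 1 sample gave 3382 and 3513. NCAM1, a neural cell adhesion molecule, stood at 1.5 and 1.64 RPM in the controls and at 115 and 120 in the fusion libraries. CD96, a receptor of lymphocytes, had no read in the controls and 31.0 and 27.8 RPM in the fusion libraries. EREG, a ligand of the EGF receptor, stood at 165 and 160 in the controls and at 3.45 and 2.31 in the fusion libraries, and AREG, another such ligand, fell from 257 and 247 to 31.0 and 32.5. The fusion and the cell line that carries it cannot be told apart in this design. Scores are shares of a gene's own reads, but the number of reads sets how many genes can be called.

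A second set of HCT116 libraries with the same editors and fusions, 2 with the fusions and 2 with their own unfused controls, allowed the same contrast to be set beside this one. There the A-to-I edited share was 4.52 ± 0.00383% against 0.253 ± 0.0100% and the C-to-U share 1.10 ± 0.00677% against 0.241 ± 0.0184% (SD, n = 2 per group). Folds of the shares were 17.9 and 4.56, beside 16.7 and 4.55 here. In that set 8820 of 9316 genes (94.7%) rose and 5 (0.0537%) fell in A-to-I, and 3565 of 7037 (50.7%) rose and 46 (0.654%) fell in C-to-U. Of 8434 genes tested for A-to-I in both sets, 7833 rose here and 8172 there. In both sets 7698 rose, 98.3% of those that rose here and 94.2% of those that rose there. So many rose in each set that a large overlap was fixed in advance, and these shares do not measure agreement. Of 6015 genes tested for C-to-U in both, 3152 rose here, 3341 there and 2709 in both, 85.9% and 81.1%. Above the library-wide rise the shared genes were 687 in A-to-I (72.9% and 66.1%) and 537 in C-to-U (72.1% and 69.3%). Below it they were 432 (43.7% and 50.1%) and 342 (48.4% and 40.9%).

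The scores of single genes in the fusion libraries were also set side by side. Over 10284 genes with 20 reads in all 8 libraries, the rank correlation of mean fusion scores was 0.849 for A-to-I and 0.748 for C-to-U, and between the 2 fusion libraries of this set it was 0.833 and 0.653. Means of 2 libraries carry less counting noise than single libraries. These correlations therefore do not rank the agreement between sets against that within a set. The genes are not independent replicates, and low scores rest on few edited reads. TSPAN7 had mean scores of 21.9% A-to-I and 21.0% C-to-U in the second set, beside 29.9% and 15.9% here. SELENOF had 16.2% and 9.86% beside 19.1% and 9.18%, and B2M had 12.5% C-to-U beside 12.8%. RPL7A differed, with a mean C-to-U score of 0.614% in the second set beside 12.1% here, and no edited read in the controls of either set. Its A-to-I score was 3.28% there beside 0.951% here. RPL7A was picked out after its values were seen, and the test between the sets given below did not call it for either kind. With no C-to-U edited read in the controls of either set, its C-to-U fold has no measured base in either, so that test could not settle it.

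**Figure D5:**
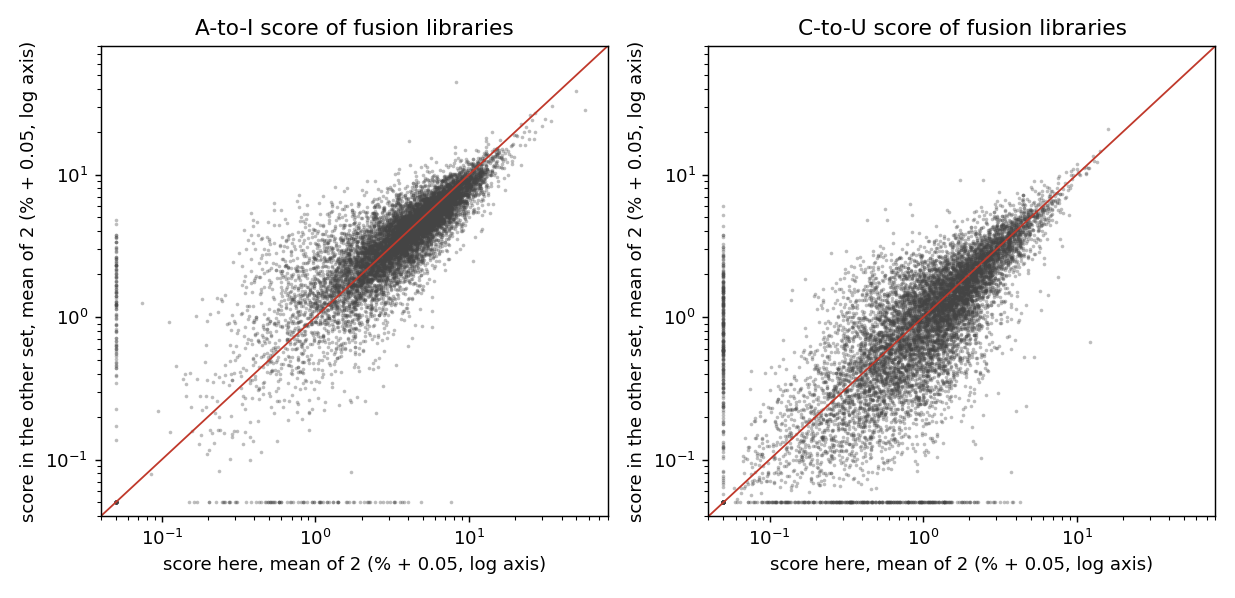
Mean fusion score of each of 10284 genes in the libraries described here (x axis) and in the second set of HCT116 libraries (y axis), in percent plus 0.05 on log axes, A-to-I on the left and C-to-U on the right. The red line marks equal scores; points scatter around it most widely below 1%, and 1 C-to-U point near 12% here and 0.6% there is RPL7A.

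The difference between the sets was tested as an interaction of set and fusion. For A-to-I 17 of 9711 genes (0.175%) had a larger rise here and 6 (0.0618%) a smaller one, and for C-to-U 21 of 8792 (0.239%) and 6 (0.0682%). Leaving out 1 of the 4 libraries described here reduced the 23 A-to-I genes to between 5 and 10 and the 27 C-to-U genes to between 1 and 6. EEF2, for example, had A-to-I scores of 7.12% and 7.06% with the fusions in the second set, close to 7.09% and 6.73% here, and differed in the controls, 0.0991% and 0.101% there against none here (adjusted p = 9.54e-06, edgeR).

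Nanopore reads from cells with the same fusions were available as a deposited table of 1094 genes, with the reads per gene that carried both kinds of edit. All 1094 genes rose in both kinds here, beside 2013 of the 5378 tested genes outside the table (37.4%). The table may have been chosen on short-read editing of these cells, so this is no independent evidence, and its genes were read more, with a median of 1682 reads here against 469 outside. In the authors' deposited values the median gene had 23.5% of its nanopore reads edited in both kinds, with a range of 0.225% to 63.1%. Over the 1094 genes that share had a rank correlation of 0.412 with the A-to-I score and 0.538 with the C-to-U score here, a description over genes that share libraries. OSTM1 had 46 of 83 nanopore reads edited in both kinds (55.4%), SH3BGRL 93 of 185 (50.3%) and TSPAN7 23 of 46 (50.0%). DDX6 had 24 of 267 (8.99%) and RPL7A 194 of 2435 (7.97%).

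Poly(A) tails in the same table were shorter in the reads with both edits. In 896 of the 1094 genes (81.9%) the authors' deposited median tail was shorter in these reads, with a median over genes of 119 against 150 in the other reads, in a unit the table does not state. TSPAN7 had 80.2 against 177, SH3BGRL 150 against 175, and MOB4 141 against 150. OSTM1 went the other way, with 179 against 172. The nanopore library has no replicate in this table, and no test was made.

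Translation efficiency was available for HCT116 cells without editors as the authors' deposited log2 values, 1 for wild-type and 1 for DDX6-knockout cells. Over 10344 genes the knockout minus wild-type difference had a median of 0.33 and was above 0 in 82.8%. In the 3105 genes that rose in both kinds the median difference was 0.56 and the median wild-type value -0.63. In the 3365 genes tested for both kinds that did not rise in both, these were 0.34 and -0.15. The 341 genes above the library-wide rise in both kinds had a median difference of 0.71, and the 183 below it in both had 0.46. Genes that rose in both kinds had a median of 1041 reads and the others 548, and the part of expression in this difference was not tested. DDX6 cannot be read here because the knockout removes it, while TSPAN7 went from 0.04 to 0.89, SH3BGRL from -0.80 to -0.21 and ARL6IP1 from 0.21 to 1.26. RPL7A had 0.12 in wild-type and 0.02 in knockout cells.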

How the data were processed

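Short-read RNA libraries of induced HCT116 cells were used, 2 with the fused and 2 with the unfused editors. The values deposited by the authors are, per gene and library, counts of reads and of edited reads, and a fraction that equalled the latter over the former. Translation efficiency was deposited by the authors as log2 values, and nanopore tails were deposited as median lengths with read counts. The submitters' processing notes name STAR 2.7.9a, featureCounts 2.0.1, FastQC 0.11.9, cutadapt 1.18 and build hg38. Not given in the sources used here are the caller of edited sites, its filters, the use of strand, and how translation efficiency and tails were computed, so overlapping genes and near-identical copies may share reads. All columns of per-sample values used here matched a sample, with 0 left over.

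The quasi-likelihood test of edgeR 4.0.16 in R 4.3.3 was run on edited reads, offset by the log of reads per gene, over genes with 20 or more reads in every library and 10 or more edited reads over the libraries compared. Tests were two-sided, with Benjamini-Hochberg adjustment over all genes tested, with a threshold of 0.05. Further fits multiplied the reads in the offset by each library's overall edited share, tested the interaction of kind and fusion (with library as a factor) and that of library set and fusion, and tested reads per gene after TMM normalization and filterByExpr. DESeq2 1.42.0, limma 3.58.1 on log2(score in percent + 0.1 or 1), a minimum of 50 reads, no minimum of edited reads, each library left out, a replicate block and, added after the data were seen, both controls as 1 sample were alternatives. A control without edited reads was set to 3 edited reads over its summed reads ("at least"), and ratios on 1 to 3 edited reads have exact 95% intervals. Intervals and floors cover counting error only. The tests were tried on simulated data. Positions came from a RefSeq table of GRCh38.p14, which matched 10338 of 10350 genes. The rest used matplotlib 3.10.9, scipy 1.17.1, numpy 2.4.6 and pandas 2.3.3 under Python 3.11.15.

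The members and lists were chosen with earlier results of these data known. Named genes are DDX6, LSM14A and the P-body list, the 8 highest scores and the 8 largest folds per kind among called genes of at least 5% without overlap, the 6 largest falls from at least 2%, the 10 highest in both kinds, the 6 largest differences per direction between kinds, between sets (at least 2%) and in RNA (at least 200 reads), and the 2 highest members and the lowest per list. Part of them is printed, and some are not reported here. The highest members of a list are thus chosen by their scores.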

Additional observations from a re-analysis of the deposited data

Results flagged for a closer look

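The rise in editing differed between the 2 sets of HCT116 libraries in 23 genes for A-to-I and in 27 for C-to-U, by the test of set and fusion (edgeR, relative to the library-wide rises). In most of the genes named here 1 of the sets had no edited read in its controls.

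The 6 genes with the largest A-to-I differences toward a larger rise here, among genes with a mean score of at least 2%, had no edited read in the controls here. EEF2 had mean control scores of 0% here and 0.10% there (adjusted p = 9.54e-06, edgeR). TUFM, a mitochondrial elongation factor, had 0.393% there (adjusted p = 0.00155, edgeR), with fusion scores of 16.0% here and 13.2% there. ARF1 and SPINT1 (adjusted p = 0.00879 for each, edgeR) had 0.194% and 0.160% there, and RHOA (adjusted p = 0.00897, edgeR) had 0.141%. SHF (adjusted p = 0.0479, edgeR) had no edited read in 110 control reads here, and there its controls went apart, with 1.47% and 17.1%.

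Genes with a smaller A-to-I rise here and a mean score of at least 2% were BCAP31 (adjusted p = 5.98e-05), PMF1 (0.0150), JMJD1C (0.0199), NKTR (0.0239) and PDZD8 (0.0382), all by edgeR. RPS24, below that score and named outside the rule, was the other one (adjusted p = 0.00769, edgeR), with mean fusion scores of 0.276% here and 1.01% there and no edited read in the controls there. BCAP31, a chaperone of the endoplasmic reticulum, had control scores of 0.669% and 0.705% here and none there, with mean fusion scores of 3.38% and 3.95%. PMF1 moved in opposite directions, from a mean of 19.2% to 8.17% here and from 23.4% to 44.7% there, and in each set no fusion library overlapped a control.

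For C-to-U, the 6 genes of largest difference, by the same minimum score, had no edited read in the controls here. DKK1, a secreted inhibitor of Wnt signalling, had fusion scores of 3.62% and 3.42% here and a mean of 3.12% there, where its controls stood at 0.316% (adjusted p = 7.1e-06, edgeR). HSBP1 (adjusted p = 0.00826), SH3BGRL (0.00965), LAPTM4B (0.0106), MACROH2A1 (0.0141) and PRDX3 (0.0156), all by edgeR, had mean control scores of 0.231% to 0.910% there.

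Genes listed in only 1 of the editing files of these libraries entered no comparison of editing. Those listed for A-to-I did enter the test of RNA reads. The 435 genes listed for A-to-I alone had an edited share of 4.89% in the fusion libraries against 0.213% in the controls. The 226 listed for C-to-U alone, by the same minimum of reads, had 0.778% against 0.173%.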

How the results depend on the processing

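Direction was checked for named genes called in the comparison that named them. Genes named only as members of a list other than the P-body list were not checked. None of those checked changed direction under the alternatives run, and by each measure library-wide editing stayed higher with the fusions. The balance of calls relative to the library-wide rise turned under several alternatives, furthest with limma. There it went from 954 above and 1011 below to 1437 and 936 in A-to-I (pseudocount 1), and from 750 and 799 to 519 and 248 in C-to-U (pseudocount 0.1). The counts of A-to-I calls (7956 genes) and of RNA calls (7280) stayed within 1.5 times of these values throughout, the latter down to 5264 with DESeq2. Leaving out 1 library gave 0 to 1588 A-to-I and 0 to 1342 C-to-U genes relative to the library-wide rise, 0 to 3199 C-to-U genes, 0 to 257 genes that differed between kinds, 5 to 10 and 1 to 6 genes that differed between sets, and between 0 and 3009 genes in both kinds. A count of 0 came each time from leaving out a fusion library, where edgeR had 3 libraries and the lone fusion library was assumed to vary like the controls. DESeq2 gave 1750 C-to-U genes in place of 3284 and 1655 in both kinds in place of 3107. Relative to the library-wide C-to-U rise (1549 genes), no minimum of edited reads gave 893, and limma gave 767 with a pseudocount of 0.1 and 1025 with 1. Of the 449 genes that differed between kinds, 89 were called with no minimum of edited reads. Relative to the library-wide rises 341 genes rose in both kinds. As the median gene score, library-wide editing was 3.68% for A-to-I and 1.02% for C-to-U.

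Replicate numbers did not pair the libraries, since the deviations of same-numbered libraries were uncorrelated (-0.0162 in reads, -0.00423 in A-to-I and 0.00206 in C-to-U scores). With the numbers as a replicate block, 7698 A-to-I, 3162 C-to-U and 242 genes that differed between kinds were called. With both controls as 1 sample, an alternative chosen after seeing the data, 8013 A-to-I and 3536 C-to-U genes changed. Of the 42 named genes called for A-to-I and checked in this way, 39 were called by DESeq2, and of 30 for C-to-U, 24. Depth limits the C-to-U calls, since 3669 of the 10350 genes had too few edited reads for the test.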
